A study of Mus musculus with 14 samples.

Results

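The 100 probes described here come from a 2-colour mouse oligonucleotide array. Their ratio of sample to a common reference was lower in embryonic stem (ES) cells given retinoic acid (RA) in each of 3 settings. The kinase inhibitor LY294002 left these probes near their control. They were taken from 42006 probes. A probe had to be well above background in Cy3, the dye of the sample, on all 4 arrays of untreated cells, which 23566 probes were. Its LY294002 value had to lie within 0.3 of control on the log2 scale, which left 9499 probes, of which 2484 had a positive score. The score was the smallest of 3 falls, and the 100 highest were kept. The falls were RA 48 h below control day 3, day 4 colonies below standard day 3 and day 7 colonies below standard day 3, each as a log2 difference of the deposited ratios after centring on the array median. Scores ran from 0.79 to 2.30 (median 1.00), so on that scale every member was lower by at least 1.73-fold in all 3 settings because it was chosen to be. The fall at 48 h was the smallest of the 3 in 69 members, that of day 4 colonies in 8 and that of day 7 colonies in 23. A further 294 bright probes had as high a score but lay below the LY294002 window, and 92 lay above it.

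The series followed mouse ES cells in RA and the undifferentiated colonies that appeared among them, with 2 arrays in each of 7 groups. All cultures were in medium with LIF, and all cells were of the 129 line MC1 or its sublines, of strain 129/Sv by the labels, or 129SvEv-Tac for the day 7 colonies. Untreated MC1-ZE3 cells on day 3 made up the groups control day 3, the control of the 48 h treatments, and standard day 3, the control of the passage experiment. MC1-ZE3 cells were also kept for 48 h in 50 nM all-trans RA (RA 48 h) or, without RA, in LY294002 for the same time, at 10 nM by the label. That is well below the micromolar range in which this inhibitor is commonly used, so the unit or dose is open to doubt, and whether the inhibitor acted in these cells was not tested. Day 4 colonies came from MC1-ZE16 in 50 nM RA and day 7 colonies from MC1 in 50 nM RA. Passage 10 was MC1-ZE3 taken from RA after 7 days and grown for 10 passages without it, then sampled on day 3. Most RNA was taken from colonies picked by hand and pooled, so an array reads many colonies at once. In such bulk RNA, fewer cells of a type and less RNA per cell cannot be told apart. The labels do not state whether the 2 samples of a group were grown as separate cultures. A p-value here therefore measures only how far these samples spread, and that spread may be technical.

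RA is a vitamin A derivative that enters the nucleus, binds receptors that sit on DNA as pairs with retinoid X receptors, and switches on differentiation genes while genes of the undifferentiated state are shut down. LIF acts through a cell surface receptor and the transcription factor STAT3 to hold mouse ES cells in self-renewal. LY294002 blocks phosphoinositide 3-kinase, a lipid kinase downstream of growth factor and LIF receptors that also supports self-renewal. Probes carry only an identifier and a sequence of 60 bases here, so members are named by identifier.

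Each value below is log2 of the sample (Cy3) over a common reference (Cy5). The reference combined RNA of 11 cell lines with RNA of 129 ES cells, at 2:1 by the labels, so a positive value means more signal than in that pool. The ratio orders samples for 1 probe and does not order probes. The share of probes well above background was 56.1% to 75.1% per array, and the arrays of a group correlated at 0.972 to 0.993 across probes, lowest in day 7 colonies. The Cy3 signal of members on untreated arrays had a median of 350 intensity units (67.7 to 47624). The reference dye was well above background on all 14 arrays for 88 members and on fewer than 7 arrays for 7. Known markers of ES or other cells could not be read, as no probe is paired with a gene.

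The sequences of the leading members come first, since they are what identifies these probes. They are given 5′ to 3′ as deposited, whole or, where the 6-base poly(A) signal AATAAA lies in the probe, as the 30 bases that hold it. Capitals mark that hexamer. The first 6 by score, and 3 more among the highest 10, are:
Z00074398-1: agggccggaaAATAAAgctgttttgtattg
Z00025578-1: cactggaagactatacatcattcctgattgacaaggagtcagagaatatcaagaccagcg
Z00017554-1: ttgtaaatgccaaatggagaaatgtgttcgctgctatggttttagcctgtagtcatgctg
Z00062333-1: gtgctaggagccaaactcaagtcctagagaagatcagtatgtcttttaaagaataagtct
Z00034158-1: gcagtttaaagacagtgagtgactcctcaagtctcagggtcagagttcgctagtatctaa
Z00025911-1: ccttttagacttgaacctggcaaAATAAAt
Z00025540-1: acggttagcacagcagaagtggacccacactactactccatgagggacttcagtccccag
Z00059888-1: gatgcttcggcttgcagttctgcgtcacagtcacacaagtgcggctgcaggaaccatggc
Z00004876-1: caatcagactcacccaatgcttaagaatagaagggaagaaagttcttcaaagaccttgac

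AATAAA, read on the printed strand, was present in 8 of the 100 members (8%) and in 7.38% of the 31053 probes tested. On the other strand it was present in 3 members and in 3.07% of the tested probes. GC content had a median of 45% in the members (26.7% to 65%) and 45% in the tested probes.

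Members that read the same stretch of RNA are not independent. Among the 100, 2 pairs shared runs of at least 20 bases, shown in capitals (the second pair, which holds AATAAA further on, is given by its first 30 bases, all of them in a shared run):
Z00014749-1: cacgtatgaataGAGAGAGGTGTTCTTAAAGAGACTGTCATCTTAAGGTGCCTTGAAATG
Z00074483-1: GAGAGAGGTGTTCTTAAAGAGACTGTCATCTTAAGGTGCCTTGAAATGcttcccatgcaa
Z00004931-1: GGGGGGTCACATCTTGTATATAACCCTGCT
Z00034455-1: GGGGGGTCACATCTTGTATATATAACCCTG

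The first pair shared a run of 48 bases. The second shared its first 22 bases, and a run of 42 that starts at base 17 of Z00004931-1 and base 19 of Z00034455-1. Another 8 probes outside the 100 shared 20 bases or more with 6 members. All 8 were lower than their control at RA 48 h, in day 4 colonies and in day 7 colonies. For all tested probes that share was not counted. Probe Z00059253-1, which shared 29 bases with member Z00074445-1 and missed the 100 at rank 107, differed by -1.55, -1.94 and -0.59 in the 3 settings, where the member differed by -1.65, -2.09 and -0.65. Probe Z00051710-1, rank 119, shared 50 bases with member Z00074679-1 and differed by -0.58, -0.72 and -0.75 against -0.66, -0.75 and -0.77. Probe Z00064857-1 shared 55 bases with member Z00014799-1 and differed by -0.48, -0.23 and -0.25 against -0.42, -0.13 and -0.25. It was outside because its LY294002 value by the rule was -0.40, below the window, where the member's was 0.10. On the loess scale they were at -0.27 and -0.22. Z00074755-1, sharing 32 bases with Z00076652-1, was outside at -0.36 by the rule, against -0.29. Overlapping probes thus fell on both sides of the window. Some other overlaps were less close, and those named were chosen after their values were seen. The 3 probes that shared 24 bases with member Z00027168-1 (Z00070826-1, Z00072239-1 and Z00072366-1) were at -0.56 to -0.62 in day 7 colonies, where the member was at -0.93, and at -0.26 to -0.28 with LY294002, where it was at -0.02. Z00078058-1, sharing 26 bases with Z00077933-1, was at -0.17 in day 7 colonies against -0.39. There the member was well above background on 1 array of 2, and Z00078058-1 was not so on all untreated arrays.

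A RefSeq promoter table (GRCm38) placed parts of 3 members, shown with the matched bases in capitals:
Z00043333-1: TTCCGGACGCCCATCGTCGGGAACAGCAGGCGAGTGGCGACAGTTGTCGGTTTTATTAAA
Z00058995-1: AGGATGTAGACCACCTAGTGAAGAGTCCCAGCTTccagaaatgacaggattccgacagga
Z00029949-1: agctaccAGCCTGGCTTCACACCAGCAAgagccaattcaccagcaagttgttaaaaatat

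All 60 bases of Z00043333-1 matched chr8:107048671-107048730 on the + strand. RefSeq has Cog8, a subunit of a Golgi tethering complex, over this stretch on the - strand, and it lies in the promoter window of Pdf, so the probe is on the strand opposite to both. The first 34 bases of Z00058995-1 matched chr7:144899905-144899938 on the + strand, up to the end of the window searched, which is the promoter window of Gm26793 on the - strand, so the probe is opposite to that gene. The stretch also lies within the span of Fgf15, a secreted growth factor of the FGF family, whose strand the tables used here do not give. Only 21 bases of Z00029949-1 matched, at chr14:76488409-76488429 in the promoter window of Tsc22d1, on that gene's strand. That match ended inside the window on both sides, so the probe bases next to it did not match there. The place of this probe is therefore uncertain. These are locations, and which transcript each probe reads was not tested.

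Members sat above the reference in cells without RA and near or below it in RA. The median member stood at 0.65 in control day 3, 0.55 in LY294002, 0.87 in standard day 3 and 0.90 at passage 10. It stood at -0.09 at RA 48 h, -0.13 in day 7 colonies and -0.25 in day 4 colonies. The number of members above the reference was 91, 90, 96 and 95 in the former and 43, 41 and 26 in the latter. Of all tested probes 48.4% to 50.3% lay above it in each group. At least 2-fold above it were 26, 23, 40 and 48 members in the groups without RA, against 3 at RA 48 h, 2 in day 7 colonies and 0 in day 4 colonies, and 4.12% to 7.70% of all tested probes. The rule itself set most of these gaps between groups with and without RA. Arrays of a group were close: the median member read 0.66 and 0.61 on the control arrays, -0.07 and -0.10 at RA 48 h, and 0.96 and 0.87 at passage 10.

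Among the groups, members were dimmest in day 4 colonies. All 100 members were well above background on both arrays in both untreated groups and at passage 10, the first 2 of these by the rule. In day 4 colonies 79 were, and 15 were on neither array. In day 7 colonies the numbers were 88 and 5, at RA 48 h 95 and 3, and with LY294002 97 and 1. Over all probes, the share well above background per array was 58.5% in day 4 colonies and 66.1% and 66.3% in day 7 colonies. It was 68.6% and 75.1% at RA 48 h, and 58.1% and 57.8% in standard day 3. The median Cy3 signal over background of all probes was also lowest in day 4 colonies (1.97 and 1.88, against 2.00 to 2.96 elsewhere). For members not well above background in a group, a fold is given only as a lower bound. It was computed in Cy3 alone after loess and Aquantile, with each dim array at the higher of its own signal and the lowest signal well above background there, and the fold of the fitted ratios was taken where that was lower. Without a dye swap such a bound is open to dye bias.

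The falls in RA are what chose the members, and are described with no test. They are falls of the ratio. The median raw Cy3 signal of members was 152 and 148 units at RA 48 h, against 385 and 328 in control day 3. Raw signal did not fall in every member, however. Z00071281-1 had 80.2 units at RA 48 h and 75.1 in control, and Z00055491-1 had 485 in day 7 colonies and 376 in standard day 3. At RA 48 h the median difference from control day 3 was -0.76 (-2.31 to -0.07) on the scale normalized by loess, against 0.01 over all tested probes. Both RA arrays lay below both control arrays in 99 members (34.8% of all tested probes). In day 4 colonies the median difference from standard day 3 was -1.13 (-3.84 to -0.13), with no overlap in 100 members (34.8% of all). In day 7 colonies it was -0.93 (-3.05 to -0.13), again with no overlap in 100 (33.8% of all). The median was thus lowest in day 4 colonies, where 15 members, as counted above, have only a bound. Both kinds of colony differed from standard day 3 in line, culture day and slide as well as in RA. For these 2 falls, RA, line, day and slide cannot be told apart.

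Z00074398-1 had the highest score. It read 0.75 and 0.70 in control day 3, -1.20 and -1.31 at RA 48 h, 0.91 and 0.84 with LY294002, 1.18 and 1.20 in standard day 3, -1.45 and -1.43 in day 4 colonies, -1.78 and -1.20 in day 7 colonies, and 1.51 and 1.53 at passage 10. All 6 RA arrays lay below the reference and all 8 others above it. The difference was -1.98 (3.94-fold) at RA 48 h, -2.63 in day 4 colonies and -2.68 in day 7 colonies.

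Z00025911-1, printed above with its hexamer, read 2.16 and 2.19 in control day 3, 0.47 and 0.46 at RA 48 h, 1.88 and 1.87 with LY294002, 2.10 and 1.96 in standard day 3, -0.55 and -0.55 in day 4 colonies, -0.51 and -0.71 in day 7 colonies, and 2.28 and 2.38 at passage 10. It stayed above the reference at 48 h and was below it in both kinds of colony. Z00025540-1 ran the other way, reading 0.89 and 0.86 in control, -1.35 and -1.52 at RA 48 h, 1.29 and 1.15 in standard day 3, -0.98 and -1.19 in day 4 colonies and -0.23 and -0.17 in day 7 colonies. Its difference of -2.31 (4.96-fold) at 48 h was the largest among the members, and day 7 colonies were the least low of its RA groups.

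Z00017554-1 lay below the reference in every group. It read -0.14 and -0.23 in control, -0.47 and -0.10 with LY294002, -0.67 and -0.80 in standard day 3 and -0.37 and -0.26 at passage 10, but -1.92 and -2.13 at RA 48 h, -2.71 and -2.59 in day 4 colonies and -2.31 and -2.26 in day 7 colonies. For this probe the lowest array without RA, at -0.80, and the highest with RA, at -1.92, lay far apart.

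Z00025578-1 was well above background on neither array of either kind of colony. Standard day 3 was higher than day 4 colonies by at least 3.01-fold and higher than day 7 colonies by at least 3.23-fold. On the same basis Z00062333-1 was at least 2.18-fold, Z00034158-1 at least 2.19-fold and Z00068994-1 at least 2.47-fold higher in standard day 3 than in day 4 colonies.

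The limit of 100 was not a gap in the values. Z00012412-1 and Z00074897-1 were last in, with scores of 0.795 and 0.794, and Z00042485-1 and Z00063267-1 were first out with 0.793 and 0.790. With the rule applied to the loess values, 59 of the 100 stayed members. A window of 0.2 kept 74 and one of 0.5 kept 63.

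Some members lay close to background. On the loess scale 7 members were lower at RA 48 h by less than 0.3, and their Cy3 signal in control day 3 was 56.8 to 85.8 units, with a median of 65.6 against 456 for the other members. Z00028401-1, rank 12 by score, read 0.09 and 0.11 in control day 3 and 0.07 and -0.03 at RA 48 h. Its control signal was 56.8 units and its reference dye was well above background on 2 of 14 arrays. On neither RA 48 h array was it well above background. The bound described above was 1.04-fold, but its Cy3 signal over background was 1.39 at RA 48 h and 1.34 in control. No fall at 48 h can be read from this probe. Of the 7, 3 were above background on neither RA 48 h array.

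Neutrality to LY294002 was also part of the rule. The LY294002 arrays had a median difference from control of -0.12 (-0.38 to 0.25) on the loess scale, and 90 members lay within 0.3 while 10 were lower by more and 0 higher by more. Both LY294002 arrays lay below both controls in 55 members (39% of all tested probes) and above them in 9 (38.2%). The sign of that median depends on the scaling: it was 0.028 without loess, with 0.12 as the median over every probe tested, and 0.0076 on the deposited ratios. LY294002 lay on slide 6 and control day 3 on slide 5, and slide and treatment cannot be told apart.

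Passage 10 was the only group with which the rule did nothing, and there the median member read 0.90, beside 0.87 in standard day 3. Against standard day 3, 12 members rose and 0 fell in limma at a Benjamini-Hochberg adjusted p under 0.05, where 1.66% of all tested probes rose and 1.76% fell. The median difference was 0.09 (-0.27 to 0.72), against 0.01 over all tested probes, and 84 members lay within 0.3. Both passage 10 arrays lay above both standard arrays in 44 members (24.4% of all) and below them in 8 (21.4%). The rule chose members for being high on the standard day 3 arrays, which by itself pulls this difference down. With 1 array left out, fewer members and a smaller share of all probes were called higher, and the median difference was 0.08 to 0.10. Without loess 0 were called (0.058% of all probes), with a median of 0.07.

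Passage 10 and standard day 3 shared slides, 1 array of each on slide 2 and 1 on slide 3. Within slide 2 the median difference of members was 0.08, with 72 higher, where 54.1% of all tested probes were higher. Within slide 3 it was 0.10, with 68 higher, against 50.0% of all. On both slides 55 members were higher (33.8% of all).

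The largest of these rises was in Z00029949-1. It read 0.63 and 0.66 in standard day 3, 1.41 and 1.31 at passage 10, 0.62 and 0.60 in control day 3, -0.02 and 0.07 in day 4 colonies and -0.07 and -0.29 in day 7 colonies. Passage 10 was above every other array for this probe, by 0.72 over standard day 3 (SE 0.08, 1.64-fold, limma adjusted p = 0.00062). Z00025578-1 rose by 0.57 (SE 0.08, adjusted p = 0.0022 in limma), from 1.44 and 1.55 to 1.99 and 2.13. Z00025095-1 rose by 0.55 (SE 0.08, adjusted p = 0.0029 in limma), from 0.93 and 0.74 to 1.48 and 1.29. Z00058995-1, the probe in the Gm26793 window, rose by 0.48 (SE 0.09, adjusted p = 0.016 in limma). Their sequences, with that of the member with the highest ratio to the reference at passage 10, are given for the last set not yet shown:
Z00025095-1: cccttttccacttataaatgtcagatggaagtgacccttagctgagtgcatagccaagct
Z00071921-1: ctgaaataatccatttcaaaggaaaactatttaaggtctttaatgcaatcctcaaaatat

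Z00071921-1 read 2.49 and 2.48 at passage 10 and 2.63 and 2.61 in standard day 3. It remained above the reference in RA too, at 1.30 and 1.43 at RA 48 h, 0.97 and 0.97 in day 4 colonies and 1.31 and 1.34 in day 7 colonies. At the other end Z00074897-1 read -0.51 and -0.46 at passage 10, -0.62 and -0.54 in standard day 3 and -1.15 and -1.06 in day 4 colonies, below the reference throughout.

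The passage 10 arrays were also set against all cells still in RA. Both passage 10 arrays lay above all 6 arrays of RA 48 h, day 4 and day 7 colonies in 95 members, and in 16.8% of all tested probes. All 8 arrays without RA lay above all 6 with it in 81 members (2.61% of all). The 6 RA arrays were low in members by the rule, which largely fixed both counts.

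Against control day 3, 50 members were higher at passage 10 and 15 lower in limma at an adjusted p under 0.05, where 26.9% of all tested probes were higher and 30.7% lower. The median difference was 0.25, against -0.01 over all. The control arrays entered the rule as high against RA 48 h, and the adjusted p does not allow for that choice. These groups lay on different slides, and slide and group cannot be told apart. Z00025578-1 rose by 1.46 (SE 0.08, adjusted p = 1.5e-08 in limma), Z00060440-1 by 1.36 and Z00075561-1 by 1.21. Z00034440-1 fell by 1.09 (SE 0.08, adjusted p = 1.1e-07 in limma), Z00074308-1 by 0.87 and Z00055491-1 by 0.73. The 3 that fell read 1.02 to 1.51 on the control arrays and 0.18 to 0.53 at passage 10. On the deposited ratios 53 were higher and 7 lower (26.5% and 30.1% of all tested probes). Without loess 27 were higher and 13 lower (10.5% and 24.5% of all).

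Both kinds of colony entered the rule, each against standard day 3, so the comparison between them describes the members chosen, and its p-values do not allow for the choice. In limma at an adjusted p under 0.05, 39 members were higher in day 7 colonies and 13 lower, where 27.4% of all tested probes were higher and 25.4% lower. At least 2-fold higher were 8 members (4.36% of all probes) and 2-fold lower 0 (2.61% of all). Calls in either direction were about as common among members as among all probes. The median difference was 0.12, against 0.01 over all. Without loess 36 were higher and 5 lower (25% and 8.12% of all). The colonies were of different lines, MC1 and MC1-ZE16, and on different slides, so day, line and slide cannot be told apart.

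The 3 largest rises were in Z00075047-1 and the overlapping pair Z00004931-1 and Z00034455-1. The pair had Cy3 signals of 52818 and 51798 units in control day 3 and Z00075047-1 had 42930, with no saturated spot. Z00075047-1, which shared no 20 bases with the pair, and the 3 members with the largest falls have these sequences:
Z00075047-1: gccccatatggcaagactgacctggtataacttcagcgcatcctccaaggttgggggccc
Z00009923-1: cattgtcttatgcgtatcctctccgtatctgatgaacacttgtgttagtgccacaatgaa
Z00056857-1: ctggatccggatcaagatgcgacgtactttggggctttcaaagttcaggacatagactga
Z00034488-1: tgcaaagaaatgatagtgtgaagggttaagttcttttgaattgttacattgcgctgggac

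Z00075047-1 read 0.96 and 0.94 in control day 3, -0.14 and -0.13 at RA 48 h, 0.98 and 1.01 with LY294002, 1.19 and 1.21 in standard day 3, -2.43 and -2.40 in day 4 colonies, 0.52 and 0.20 in day 7 colonies, and 1.57 and 1.60 at passage 10. Day 4 colonies stood apart from every other group, and day 7 colonies lay between RA 48 h and control. The day 7 colonies were higher than the day 4 colonies by 2.78 (SE 0.08, 6.86-fold, limma adjusted p = 1.3e-10). Z00004931-1 read -2.60 and -2.55 in day 4 colonies and 0.27 and -0.05 in day 7 colonies, a rise of 2.68 (SE 0.09, adjusted p = 2.4e-10 in limma). Z00034455-1 read -2.49 and -2.54, then 0.20 and -0.14, a rise of 2.55 (SE 0.09, adjusted p = 3.6e-10 in limma). For these 3 probes the deficit against standard day 3 was 3.62 to 3.84 in day 4 colonies and 0.84 to 1.26 in day 7 colonies, in log2 units.

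Z00009923-1 went the other way. It read 1.02 and 0.97 in standard day 3, 0.23 and 0.28 at RA 48 h, -1.23 and -1.23 in day 4 colonies and -2.14 and -1.98 in day 7 colonies, and returned to 1.17 and 1.17 at passage 10. Day 7 colonies were lowest, and they fell by 0.83 from day 4 colonies (SE 0.07, adjusted p = 3.8e-07 in limma). Z00056857-1 fell by 0.61 (SE 0.09, adjusted p = 7.6e-05 in limma), from 0.32 and 0.18 to -0.43 and -0.30. Z00034488-1 fell by 0.61 (SE 0.09, adjusted p = 0.00012 in limma), from 0.22 and 0.22 to -0.40 and -0.38. In the last 2, day 4 colonies were still above the reference and day 7 colonies below it.

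The 2 untreated cultures, each high by the rule against its own RA groups, were set against each other. In limma at an adjusted p under 0.05, 16 members were higher in control day 3 than in standard day 3 and 43 lower, where 29.4% of all tested probes were higher and 24.5% lower. The median difference was -0.17, against 0.02 over all. Without loess 16 were higher and 14 lower, with a median of -0.05 against 0.07 over all probes (22.3% of all higher and 7.83% lower). On the deposited ratios 7 were higher and 51 lower (27.8% and 24% of all). With 1 array left out the median difference was -0.20 to -0.14. Standard day 3 entered the rule as the high side of 2 falls and control day 3 of 1, which by itself can favour lower calls here, and the p-values do not allow for it. The cultures lay on different slides, and slide and culture cannot be told apart.

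Z00060440-1 had the largest fall. It read -0.09 and -0.09 in control, -0.18 and -0.06 with LY294002 and -0.43 and -0.37 at RA 48 h, but 1.15 and 1.13 in standard day 3 and 1.39 and 1.15 at passage 10. Control day 3 was lower than standard day 3 by 2.35-fold (a log2 difference of -1.23, SE 0.09, adjusted p = 4e-07 in limma), and was nearer to the RA arrays, from which it differed by 1.24-fold. Z00075179-1 fell by 1.00 and Z00074483-1 by 0.93. Z00034440-1 ran the other way, at 1.51 and 1.50 in control against 0.39 and 0.60 in standard day 3, a rise of 1.01 (SE 0.08, adjusted p = 3.2e-07 in limma). Z00074308-1 rose by 0.90 and Z00055491-1 by 0.83.

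LY294002 cells, near control day 3 by the rule, were then set against standard day 3. In limma at an adjusted p under 0.05, 9 members were higher and 49 lower, where 23.2% of all tested probes were higher and 23.4% lower, and 4 were lower at least 2-fold (3.17% of all). The median difference was -0.23, against 0.01 over all. Without loess 19 were higher and 9 lower, with a median of -0.05, while 33% of all tested probes were higher and 6.55% lower and their median moved to 0.20. With 1 array left out the median difference was -0.29 to -0.23. On the deposited ratios 8 members were higher and 46 lower (25.6% and 22.1% of all). Only without loess were more members higher than lower. Of all probes, the shares higher and lower were nearly even with loess, and more were higher without it. The rule chose members as high on standard day 3 and near control with LY294002, which by itself can favour lower calls here, and the p-values do not allow for it. Slide and treatment cannot be told apart.

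Z00060440-1 fell by 1.26 (SE 0.09, adjusted p = 3.4e-07 in limma), Z00075179-1 by 1.17 and Z00025578-1 by 1.15. Z00034440-1 rose by 0.93 (SE 0.08, adjusted p = 6.6e-07 in limma), Z00055491-1 by 0.93 and Z00074308-1 by 0.85. For these probes the LY294002 and control day 3 arrays read alike, at 1.46 and 1.39 against 1.51 and 1.50 for Z00034440-1, as the rule required. This comparison and the one between untreated cultures share the standard day 3 arrays, and the rule held LY294002 near control day 3. It therefore largely repeats that comparison and is not a separate result.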

How the data were processed

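The file headers name Agilent Feature Extraction 9.5.1.1 as the software that read the 14 arrays. Scanner intensities (mean signal and median background) are unnormalized, per the file headers, and the deposited log10 ratios are of Cy5 over Cy3, from signals the extraction software had dye-normalized. Samples were in Cy3 throughout by the labels and dyes were not swapped, and signs were turned to sample over reference. The authors' value table, in log10 units, holds 25030 probes and 56 of the 100 members. After centring each probe it tracked minus the deposited log10 ratio (lowest column correlation 0.999 over 14654 probes), so its direction is sample over reference, and the constant added per probe stays unknown. The deposited log10 ratios, turned to log2 and centred on each array's median, chose the members. Neither the scanner files nor the table pair probes with genes, so of 79 gene symbols listed for pluripotency, LIF, RA and cell type markers 0 could be tested.

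Mean signals were corrected with normexp (offset 50) and loess in limma 3.58.1 under R 4.3.3 (statmod 1.5.0). Control spots had weight 0, and control and outlier spots were left out. Spots of a probe were averaged. Saturated Cy3 spots numbered 0. A probe was tested if well above background in Cy3 on both arrays of 1 group or more (31053 of 42006, 73.9%). All 100 members passed, because the rule asks for this in untreated cells. One mean per group was fitted over all 14 arrays (7 residual degrees of freedom, 5.33 from the prior), two-sided, with p adjusted over all tested probes. The steps were tested on simulated data. The number of arrays limits the precision.

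Members and lists were chosen with earlier results of these data known. Named probes were the 12 highest scores, the 2 nearest inside and outside the limit, up to 3 rises and 3 falls per tested comparison among calls without overlap, the highest and lowest at passage 10, overlapping members and those placed by RefSeq. Others named were chosen after their values were seen.

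Standard day 3 and passage 10 arrays of 1 number shared a slide and deviated together (r = 0.254 across probes). In the other tested comparisons r was -0.11 to 0.11, with no shared slide. Alternatives were no loess, the deposited ratios, the value table, no filter, offset 16, slide and replicate blocks, and leaving out each array.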

Additional observations from a re-analysis of the deposited data

Results flagged for a closer look

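Day 7 and day 4 colonies, both set against standard day 3 by the rule, differed from each other in limma: 39 members were higher in day 7 colonies and 13 lower at an adjusted p under 0.05, where 27.4% of all tested probes were higher and 25.4% lower. The largest rises in log2 units were 2.78 in Z00075047-1, 2.68 in Z00004931-1 and 2.55 in Z00034455-1, of which the last 2 overlap in sequence. Z00009923-1 was at -0.83, Z00056857-1 at -0.61 and Z00034488-1 at -0.61. The p-values do not allow for the choice of members by the rule. Calls in either direction were about as common among members as among all probes. Line and slide differ with the day in this comparison, so the 3 cannot be told apart. With 2 arrays a group, no sample could be tested for standing apart.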

How the results depend on the processing

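Direction counts are of members past the limma threshold, with the share of all probes tested in the same setting in parentheses. With passage 10 against standard day 3, the number higher was 0 without loess (0.058%). It was 5 on the deposited ratios (1.28%) and 2 of 56 members in the value table (1.83%). In these settings 0 were lower (0.0612%, 1.72% and 2.35%). With 1 array left out the median difference was 0.08 to 0.10. Against control day 3 it was 27 higher without loess (10.5%), and 7 lower on the deposited ratios (30.1%) and 1 lower in the value table (25.8%). With 1 array left out the median difference was 0.22 to 0.26. For day 7 against day 4 colonies, 5 were lower without loess (8.12%) and 24 higher in the value table (25.9%). With 1 array left out the median difference was 0.10 to 0.14. For control against standard day 3, 7 were higher on the deposited ratios (27.8%) and 2 of 56 members in the value table (23.7%). Without loess 14 were lower (7.83%). With 1 array left out, 10 to 17 were higher (24.1% to 26.6%) and 32 to 41 lower (19.4% to 21.9%). The median difference in those fits was -0.20 to -0.14. For LY294002 against standard day 3, 19 were higher (33%) and 9 lower (6.55%) without loess, and 20 lower in the value table (21.5%). With 1 array left out the median difference was -0.29 to -0.23. The value table holds 56 members, which bounds its counts, and for the other settings the cause was not tested.

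The median difference at RA 48 h was -1.07 on the deposited ratios and -1.17 in the value table, for day 4 colonies -0.996 without loess, -1.80 and -1.97, and for day 7 colonies -0.71, -1.47 and -1.70. That of LY294002 against control day 3 turned to 0.028 without loess, 0.0076 on the deposited ratios and 0.25 in the value table, where all probes moved to 0.23. The rule kept 59 members on loess values and 63 with a window of 0.5.

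With the replicate number as a block the numbers higher were 12, 50, 40, 16 and 9 in the order above. The shares of all probes were 1.68%, 27.2%, 27.6%, 29.5% and 23.4%. The numbers lower were 0, 15, 11, 43 and 49 (1.76%, 31%, 25.8%, 24.8% and 23.8%). With the shared slides of standard day 3 and passage 10 as a block, passage 10 was higher in 12 (1.88%). The block moved no count by over 1.5 times, nor did a slide as a random block, no filter or offset 16. Groups of 2 arrays, no dye swap and members near background limit every value.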
